A study of Homo sapiens with 18 samples.

Results

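The desmosome genes were examined in ATAC-seq of 3 head and neck squamous cell carcinoma (HNSCC) cell lines that respond to cetuximab, an antibody against the epidermal growth factor receptor (EGFR). Accessible regions of the deposited region table were taken as members where they overlapped the body of DSG1, DSG2, DSG3, DSC2, DSC3, DSP, JUP, PKP1, PKP2 or PKP3 extended by 10 kb on both sides, with gene positions from GENCODE on GRCh37 (hg19). The rule used no measured value, and it found 53 of the 115087 regions of the table. They were 3 regions at DSG1, 6 at DSG2, 5 at DSG3, 5 at DSC2, 4 at DSC3, 6 at DSP, 3 at JUP, 9 at PKP1, 10 at PKP2 and 3 at PKP3, with 1 region lying in the windows of both DSG2 and DSG3. The lines SCC1 (UM-SCC-1), SCC6 (UM-SCC-6) and SCC25 received cetuximab at 100 nM each day for 5 days, or the vehicle phosphate-buffered saline (PBS) over the same time. Each line was studied as 1 cell population that grew in culture without stroma. There were 17 libraries in 6 groups, 3 in each group except SCC1 PBS with replicates 1 and 3, since SCC1 PBS replicate 2 was not analysed here. The labels do not say whether replicates were separate cultures, so that p-values measure the spread between these libraries, which may be technical.

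Desmosomes are the junctions that tie the keratin filaments of neighbouring epithelial cells together, and stratified squamous epithelium is rich in them. Desmogleins (DSG) and desmocollins (DSC) are the cadherins that span the membrane and bind across the gap between cells. Inside the cell their tails are held by the armadillo proteins plakoglobin (JUP) and the plakophilins (PKP), and desmoplakin (DSP) links these to keratin. DSG1, DSG3 and PKP1 are best known from the suprabasal and basal layers of stratified epithelia, whereas DSG2, DSC2 and PKP2 are also found in simple epithelia and heart. ATAC-seq reads where the transposase Tn5 can insert into DNA, so that the values below are the accessibility of DNA at a gene and not its expression. In bulk libraries, fewer cells with an open region and less opening in every cell cannot be told apart.

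Signal is the number of reads in a region after scaling by 1 factor per library, as deposited. Regions are named by the gene and by the distance in kb from its main start site in the direction of transcription. Reads in regions per library ranged from 2194851 to 4171650 in SCC1, from 4098164 to 15017130 in SCC6 and from 2513828 to 13408698 in SCC25, and the median region held 7 to 68 reads, so that depth was lowest in SCC1. A region with no read is listed in the table as 1 read. This floor held all 17 libraries at each of the 3 JUP regions, although peaks had been called there in 9 to 15 libraries, and the JUP regions lie in a run of 14 neighbouring regions, chr17:39929485-40177147, that are all at the floor. Of all regions, 3251 (2.82%) were at the floor in every library, and 682 of them had a peak in at least 9 libraries. JUP is therefore described by its peaks alone, and the cause of the floor was not tested. Of the squamous markers, the start sites of KRT5, KRT14, TP63 and SFN had a peak in 8, 6, 6 and 8 of the 17 libraries. PTPRC, MYOD1 and SOX10 had no region at a start site, COL1A2 (a fibroblast collagen) had peaks in 5 libraries, and PECAM1 was not in the annotation used.

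Of the 10 genes, 9 had an accessible region within 1 kb of a start site, and DSG1 had none. The sequences that follow are the reference (GRCh37) of the members on which the results turn, without their untranslated parts. Capitals mark matches on either strand to 4 motifs that were searched, which are AP-1 (TGANTCA), Grainyhead-like (AACCNGTT), TFAP2 (GCCNNNGGC) and TEAD (GGAATG). The start-site regions of DSG3 and PKP1 are shown because they differed between lines or after cetuximab in SCC1, and no motif was matched in these stretches.
DSG3 +0.0 kb, chr18:29027511-29027703, plus strand: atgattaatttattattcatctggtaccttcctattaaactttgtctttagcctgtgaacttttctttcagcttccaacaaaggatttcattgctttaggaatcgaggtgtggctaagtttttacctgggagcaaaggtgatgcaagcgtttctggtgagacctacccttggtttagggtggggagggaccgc
PKP1 -0.1 kb, chr1:201252376-201252579, plus strand: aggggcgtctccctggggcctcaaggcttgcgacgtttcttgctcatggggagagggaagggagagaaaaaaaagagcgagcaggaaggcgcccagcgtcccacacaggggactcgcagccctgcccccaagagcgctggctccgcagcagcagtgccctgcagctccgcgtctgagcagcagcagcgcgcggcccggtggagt

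A second set is of called members away from the main start site of their gene. It holds all but 1 of those with up to 3 of the smallest adjusted p in each direction after cetuximab in SCC1 or SCC6. Of the set, PKP2 +75.3 kb lies 290 bases from another annotated start site of PKP2.
PKP1 +16.6 kb, chr1:201269112-201269411, plus strand: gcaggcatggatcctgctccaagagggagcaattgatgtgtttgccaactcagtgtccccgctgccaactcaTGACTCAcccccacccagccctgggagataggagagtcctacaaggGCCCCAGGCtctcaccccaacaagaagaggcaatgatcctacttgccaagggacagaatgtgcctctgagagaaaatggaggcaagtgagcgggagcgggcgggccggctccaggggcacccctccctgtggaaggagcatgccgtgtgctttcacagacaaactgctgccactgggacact
PKP1 +24.5 kb, chr1:201276975-201277239, plus strand: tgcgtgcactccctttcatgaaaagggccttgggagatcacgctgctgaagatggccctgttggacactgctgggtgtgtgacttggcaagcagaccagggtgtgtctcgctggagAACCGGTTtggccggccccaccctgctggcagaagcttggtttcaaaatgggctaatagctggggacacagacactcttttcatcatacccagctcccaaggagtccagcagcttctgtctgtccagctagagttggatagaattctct
PKP2 +75.3 kb, chr12:32974321-32974550, plus strand: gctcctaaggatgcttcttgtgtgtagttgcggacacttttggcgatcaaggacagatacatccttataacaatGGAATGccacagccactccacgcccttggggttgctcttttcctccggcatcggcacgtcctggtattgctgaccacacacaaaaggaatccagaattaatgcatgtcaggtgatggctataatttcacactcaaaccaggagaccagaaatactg
PKP2 +36.3 kb, chr12:33013220-33013507, plus strand: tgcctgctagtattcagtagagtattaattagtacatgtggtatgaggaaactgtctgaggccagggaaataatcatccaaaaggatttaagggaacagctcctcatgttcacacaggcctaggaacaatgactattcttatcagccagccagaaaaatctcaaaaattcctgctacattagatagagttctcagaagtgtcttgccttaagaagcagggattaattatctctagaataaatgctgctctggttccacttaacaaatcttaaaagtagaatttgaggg
PKP2 +59.9 kb, chr12:32989756-32989954, plus strand: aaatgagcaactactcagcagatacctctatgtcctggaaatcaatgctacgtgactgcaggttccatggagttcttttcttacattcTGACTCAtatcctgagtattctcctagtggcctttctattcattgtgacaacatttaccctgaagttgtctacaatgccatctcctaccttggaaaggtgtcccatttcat
DSG3 +40.1 kb, chr18:29067647-29067910, plus strand: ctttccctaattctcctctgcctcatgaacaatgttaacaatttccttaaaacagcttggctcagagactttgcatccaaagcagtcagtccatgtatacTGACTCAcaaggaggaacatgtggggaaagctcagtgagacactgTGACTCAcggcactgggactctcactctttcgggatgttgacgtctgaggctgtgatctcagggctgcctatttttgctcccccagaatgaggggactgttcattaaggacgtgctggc

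The region PKP1 +16.6 kb held 1 AP-1 and 1 TFAP2 match, found in 33.4% and 17.8% of windows of 300 bases at the centre of the table's regions. PKP1 +24.5 kb held a Grainyhead-like match, which 2.69% of windows of that length hold. PKP2 +75.3 kb, which covers coding sequence of exon 9, held a TEAD match (20.2% of windows). DSG3 +40.1 kb held 2 AP-1 matches (32.8% of windows hold at least 1) and PKP2 +59.9 kb held 1 (26.0%). PKP2 +36.3 kb, PKP2 +63.5 kb and the central 300 bases of the PKP2 promoter held no match to any of the 4 motifs. Over the central 300 bases of all 53 members, AP-1 was matched in 21 (39.6%, against 29.7% of all regions), TEAD in 6 (11.3% against 19.2%), TFAP2 in 6 (11.3% against 10.8%) and Grainyhead-like in 3 (5.66% against 2.53%). These are letters in a window and do not show that a factor was bound.

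In PBS libraries the start-site regions ranked differently in the 3 lines when signal was set per kb of region. The PKP2 promoter was the most open of the desmosome promoters in SCC1 and SCC6, with a mean of 381 in SCC1, 558 in SCC6 and 286 in SCC25. DSC3 led in SCC25 at 466 per kb, against 225 in SCC1 and 95.9 in SCC6. The DSP promoter held 300.2, 348 and 210.2 per kb in SCC1, SCC6 and SCC25. The PKP3 promoter held 174, 199 and 194 per kb in the same order. DSG2 and DSC2, the cadherins of simple epithelia, were low in SCC1 (76.4 and 74.6 per kb) and SCC6 (70.0 and 86.3), and higher in SCC25 (200.1 and 134). The promoters of DSG3 and PKP1 were nearly closed in SCC6, at 3.31 and 16.6 per kb, against 143 and 175 in SCC1 and 172 and 247 in SCC25.

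**Figure D1:**
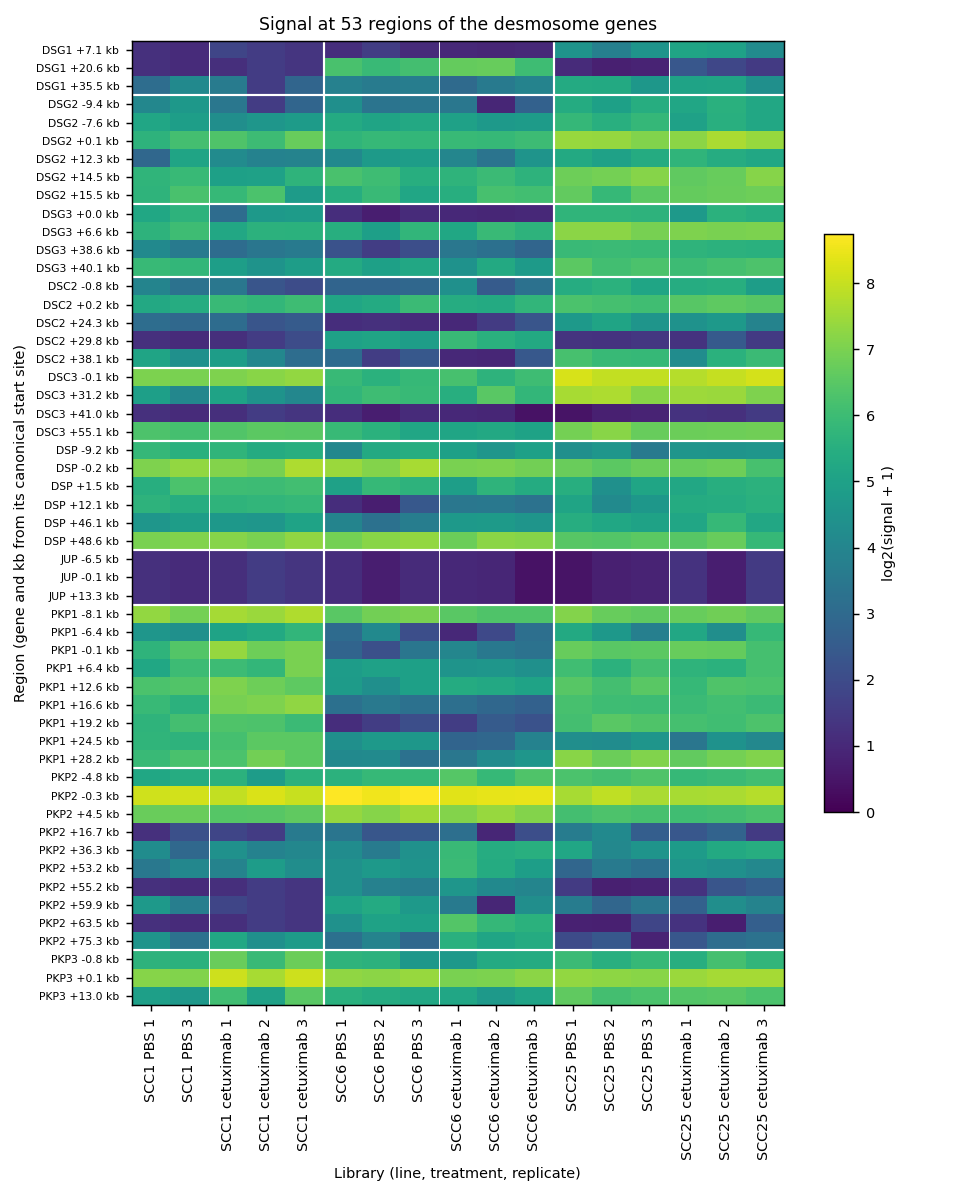
Heat map of log2(signal + 1) at the 53 desmosome regions (rows, by gene) in the 17 libraries (columns, by line, treatment and replicate), with white lines between genes, lines and treatments. The 3 JUP rows are dark in every library because the table lists them at the floor. Most PKP1 rows are darker in SCC6 than in SCC1 and SCC25, and the row of DSG1 +20.6 kb is bright in SCC6 alone.

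In SCC1, regions of PKP1 and PKP3 were more accessible after cetuximab. Of the 53 members 44 passed the filter on low signal, 5 were higher and 2 were lower after cetuximab by limma with Benjamini-Hochberg adjustment over all regions tested. Of all tested regions, 4.57% were higher and 6.56% were lower, so that 11.4% of tested members were higher and 4.55% lower. All 5 higher regions lay at PKP1 and PKP3, and none of the 18 tested cadherin regions and none of the 6 DSP regions was higher. The median log2 change of the members was 0.13, against -0.09 over all regions. The 7 calls became 3, 1 and 2 without cetuximab replicate 1, PBS replicate 1 and PBS replicate 3.

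PKP1, a plakophilin that gathers desmoplakin at the membrane, had the strongest call. Its intronic region PKP1 +16.6 kb (chr1:201269094-201269429) held a signal of 124, 132 and 155 in the cetuximab libraries and 58.5 and 48.0 in the PBS libraries. Every treated library was above both untreated ones, with a fold of 2.58 (log2 change 1.35, SE 0.26, adjusted p = 3.19e-05). This call was kept with any 1 of the 5 libraries left out. The PKP1 promoter (chr1:201252376-201252760, first exon) rose from 50.7 and 83.7 to 165, 113 and 125 (log2 change 1.01, SE 0.25, adjusted p = 0.00228). It was not called without cetuximab replicate 1 (adjusted p = 0.064, limma) or without PBS replicate 1 (adjusted p = 0.331, limma), the untreated library with the lower value. All 9 PKP1 regions had a positive change under every scaling tried, with a median of 0.63, whereas tested regions within 5 Mb of the gene had a median of 0.24.

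PKP3, the plakophilin of most epithelia, was higher at each of its 3 regions, although no call was left once a trend with GC content was removed. Its promoter, PKP3 +0.1 kb, held 272, 193 and 269 with cetuximab and 141 and 134 with PBS. The treated libraries were all higher, by 1.78-fold (log2 change 0.81, SE 0.20, adjusted p = 0.00178). Without PBS replicate 1 or PBS replicate 3 the adjusted p was 0.0627 or 0.0748 (limma). The regions PKP3 -0.8 kb (log2 change 0.87, SE 0.29, adjusted p = 0.0299) and PKP3 +13.0 kb (log2 change 1.04, SE 0.36, adjusted p = 0.0382), the second inside the neighbouring gene SIGIRR, were named after their values were seen. Both lost the call with each library left out in turn except cetuximab replicate 2 (limma adjusted p 0.162 to 0.215 and 0.16 to 0.311). The median of the 3 regions was 0.87, against 0.43 for tested regions within 5 Mb, of which 20.8% were higher.

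The 2 lower regions in SCC1 were 1 at PKP2 and 1 beyond DSG3. PKP2 +59.9 kb (chr12:32989756-32989954, intron) held 2.54, 1.95 and 1.56 with cetuximab, which are 2, 1 and 1 reads at or near the floor, and 24.7 and 12.3 with PBS (log2 change -2.63, SE 0.81, adjusted p = 0.0185). It passed the filter on low signal through its PBS libraries, and with no filter its adjusted p was 0.0293 (limma). Leaving out PBS replicate 1 or 3 gave an adjusted p of 0.382 or 0.109 (limma). DSG3 +40.1 kb (chr18:29067647-29067910), downstream of DSG3 and on the side of DSG2, fell from 58.5 and 54.7 to 29.2, 21.4 and 28.2 (log2 change -1.09, SE 0.38, adjusted p = 0.0445). It was not called with any 1 of the 5 libraries left out (adjusted p 0.054 to 0.362, limma). Of the 18 cadherin regions tested 13 had a negative change, with a median of -0.44 beside -0.24 for the regions around the cluster. That median was negative under all 4 other scalings too. Where all regions were centred on their median, 8 members were higher and 1 lower in SCC1 (of all tested regions, 8.41% and 4.09%), and where the GC trend was removed 3 were higher and 1 lower (3.69% and 6.12%). Centring moved the median of all regions from -0.09 to 0.11.

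**Figure D2:**
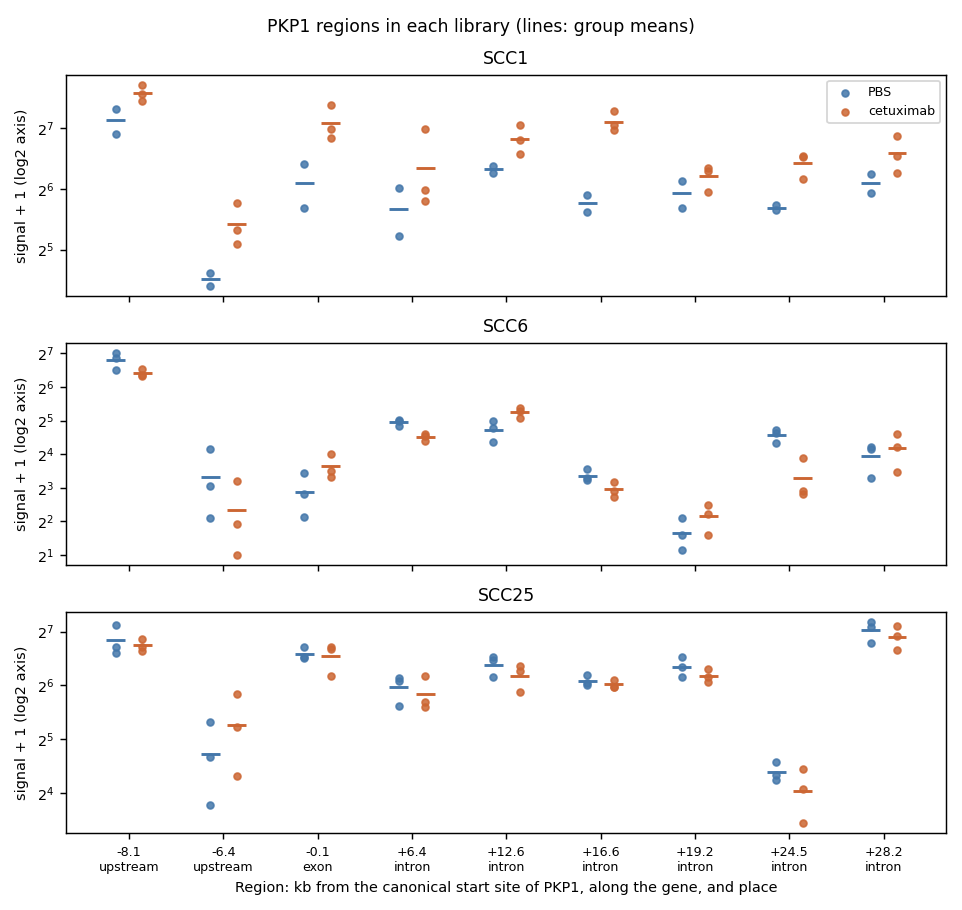
Signal + 1 on a log2 axis at the 9 PKP1 regions in each library of the 3 lines, with points for PBS (blue) and cetuximab (orange) libraries and short lines for group means, ordered along the gene and drawn with a separate vertical range per line. In SCC1 the cetuximab mean is above the PBS mean at all 9 regions, whereas at +24.5 kb in SCC6 all 3 cetuximab libraries lie below the PBS libraries.

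In SCC6 the calls gathered at PKP2, the plakophilin also found in heart and simple epithelia. Of 40 members tested, 5 were higher and 4 lower after cetuximab. Of all tested regions, 16.9% were higher and 10.6% lower, and the members' shares of 12.5% and 10.0% were close to or under these. The members' median was -0.09, against 0.11 over all regions. Of the 9 called members, 6 were at PKP2, 2 at DSP and 1 at PKP1, and none of the 16 cadherin regions tested was called. The 9 calls became 5 without PBS replicate 3 and 6 without cetuximab replicate 1, PBS replicate 1 or PBS replicate 2, which moved the split of 5 higher and 4 lower to between 3 and 4 higher and 1 and 3 lower.

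PKP2 +75.3 kb (chr12:32974321-32974550), over coding sequence of exon 9, held 46.5, 34.4 and 40.7 with cetuximab and 8.46, 14.1 and 6.53 with PBS. Every treated library was above every untreated one, by 4.18-fold (log2 change 2.01, SE 0.34, adjusted p = 1.01e-05). The intronic PKP2 +36.3 kb (chr12:33013220-33013507) rose from 18.1, 11.4 and 20.7 to 60.6, 41.8 and 45.0 (log2 change 1.52, SE 0.30, adjusted p = 8.06e-05). PKP2 +63.5 kb, also in an intron, which stayed near the floor in SCC1 and SCC25, rose from 20.5, 32.1 and 30.5 to 83.8, 55.7 and 47.3 (log2 change 1.12, SE 0.26, adjusted p = 0.000882). These 3 calls were kept with each of the 6 libraries left out and under all 16 alternatives tried. Of the 3 regions, PKP2 +75.3 kb and PKP2 +63.5 kb lie 290 and 864 bases from other annotated start sites of the gene. PKP2 +53.2 kb was the fourth higher region (log2 change 0.87, SE 0.29, adjusted p = 0.0205), and lost its call without cetuximab replicate 1 or 2 or PBS replicate 1 or 3 (adjusted p 0.0511 to 0.194, limma).

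Of the other PKP2 regions, 2 were called lower. The promoter PKP2 -0.3 kb (chr12:33049598-33050332) held 327, 341 and 352 with cetuximab and 428, 374 and 429.6 with PBS, a fold of 0.828 (log2 change -0.27, SE 0.09, adjusted p = 0.0179). Without cetuximab replicate 1, PBS replicate 1 or PBS replicate 3 its adjusted p was 0.0657, 0.0706 or 0.0787 (limma), and with the GC trend removed the change was -0.0085. PKP2 +59.9 kb, the intronic region that was lower in SCC1, held 11.1, 0.93 and 18.8 with cetuximab and 32.6, 40.1 and 25.01 with PBS (log2 change -2.09, SE 0.70, adjusted p = 0.0452). It was not called without cetuximab replicate 1 or without any 1 of the PBS libraries (adjusted p 0.0531 to 0.0884, limma). Over the 9 tested PKP2 regions 6 changes were positive and 3 negative, with a median of 0.44 beside 0.09 for regions within 5 Mb.

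**Figure D3:**
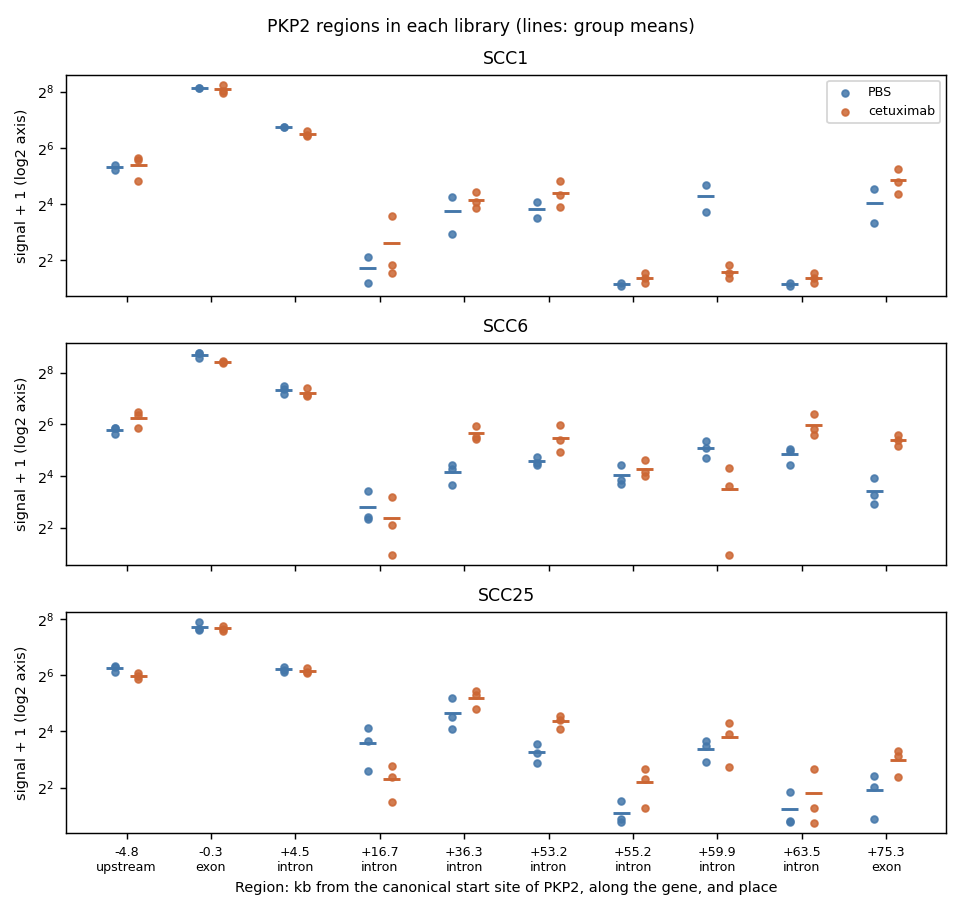
Signal + 1 on a log2 axis at the 10 PKP2 regions in each library of the 3 lines, with points for PBS (blue) and cetuximab (orange) libraries and short lines for group means, drawn with a separate vertical range per line. In SCC6 the cetuximab libraries are above the PBS libraries at +36.3, +53.2, +63.5 and +75.3 kb and below them at -0.3 and +59.9 kb.

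DSP, which links the plaque to keratin, moved in both directions. Its promoter (chr6:7541510-7541992) fell from 174, 137 and 194 to 125, 129 and 118 in SCC6 (log2 change -0.42, SE 0.14, adjusted p = 0.0213), a call lost without cetuximab replicate 3, PBS replicate 1 or PBS replicate 3 (adjusted p 0.0584, 0.0704 and 0.151, limma). With the GC trend removed its change was -0.13 (adjusted p = 0.537, limma), and scaled to reads outside peaks it was -0.20 (adjusted p = 0.283, limma). DSP +46.1 kb, downstream of the gene, rose from 14.5, 8.70 and 12.0 to 25.3, 26.0 and 22.5 (log2 change 1.03, SE 0.36, adjusted p = 0.0275), and was named after its values were seen. It lost the call without cetuximab replicate 1 or 2 or PBS replicate 2 (adjusted p 0.0741, 0.0982 and 0.107, limma). PKP1 +24.5 kb (chr1:201276975-201277239, intron) fell from 19.3, 25.4 and 23.9 to 6.06, 6.50 and 13.9 (log2 change -1.36, SE 0.41, adjusted p = 0.00932), and had an adjusted p of 0.0544 without PBS replicate 2 (limma). The split of the calls in SCC6 between higher and lower rested on the scaling. With all regions centred on their median, 3 members were higher and 7 lower (of all tested regions, 11.8% and 19.1%), while scaling to reads outside peaks gave 10 higher and 1 lower (30.6% and 6.09%). The median of all regions was 0.11 as deposited, -0.07 after centring and 0.33 after scaling to reads outside peaks.

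Among regions at start sites, 12.6% of those tested in SCC1 were higher and 2.12% lower, against 5.65% and 10.9% in SCC6. Of the 8 main promoter regions of the desmosome genes that could be read, those of PKP1 and PKP3 were higher in SCC1 and none was lower. In SCC6 those of DSP and PKP2 were lower and none of the others tested was higher. That of DSG3, at or near the floor in SCC6, was not tested there. The calls at the DSP and PKP2 promoters were lost with the GC trend removed and when scaled to reads outside peaks. Other regions within 1 kb of a start site of these genes were called higher. They were PKP3 -0.8 kb in SCC1, and PKP2 +75.3 kb and PKP2 +63.5 kb in SCC6.

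In SCC25 none of the 45 members tested was called by limma, and 5 had an unadjusted p under 0.05. The whole table held few calls too, with 0.0405% of regions higher and 0.275% lower. edgeR and DESeq2 on the recovered reads called 0 and 0 members. Changes of the members ran from -1.26 to 1.17 with a median of -0.07, beside -0.08 over all regions. When libraries were scaled to the reads outside peaks, which moved the median of all regions to -0.37, 6 of 45 members were lower and 0 higher, against 15.6% and 0.123% of all tested regions.

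**Figure D4:**
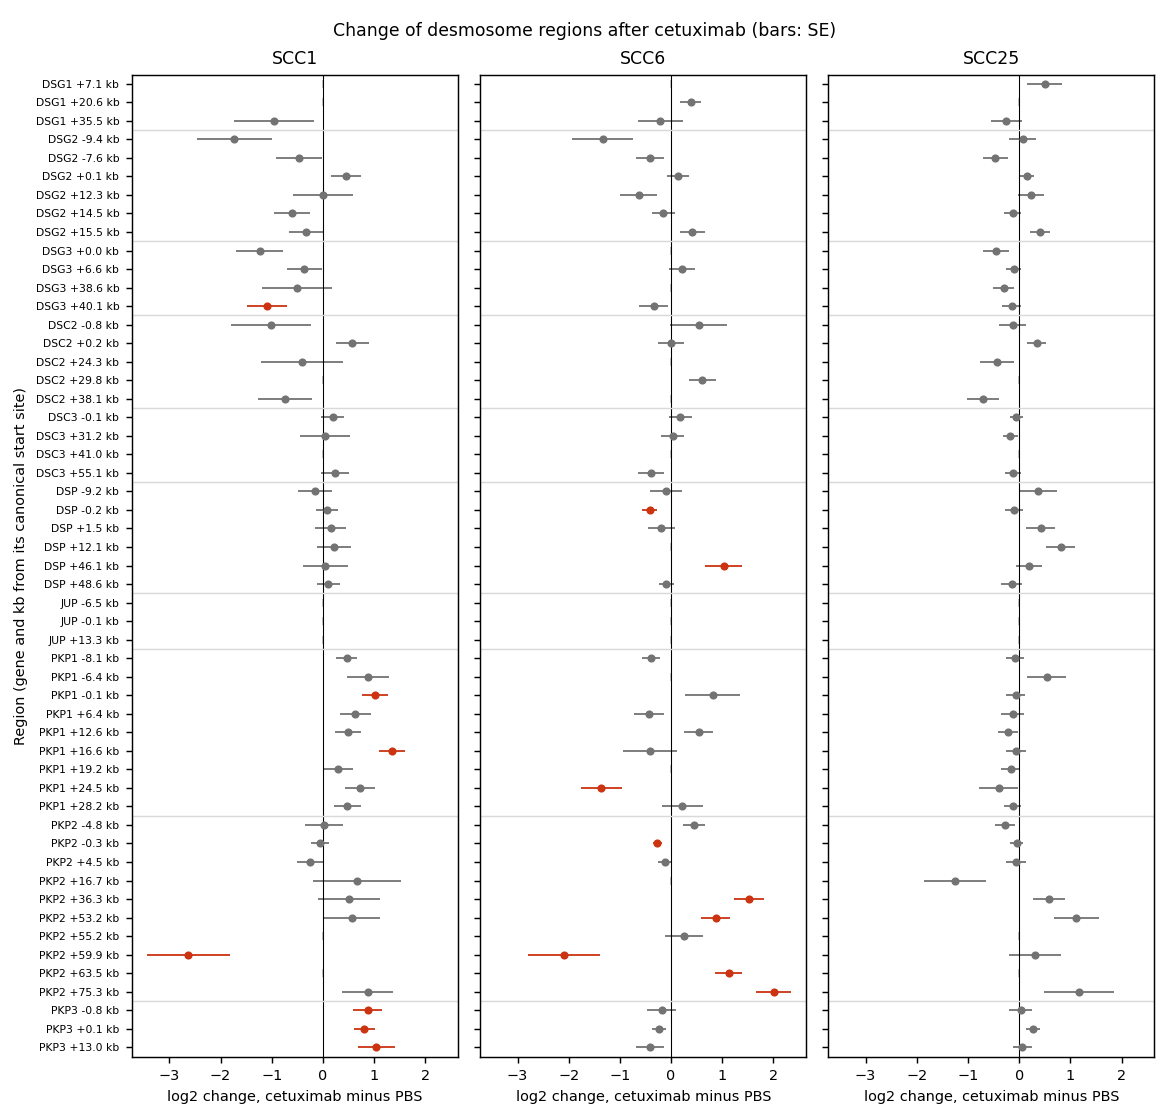
Log2 change after cetuximab (points, with bars for the SE) at each tested desmosome region in SCC1, SCC6 and SCC25, on 1 common axis, with regions called by limma in red and regions left out by the filter without a point. The 7 calls in SCC1 are mostly at PKP1 and PKP3, the 9 in SCC6 mostly at PKP2, and SCC25 has 0.

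With the 3 lines in 1 fit and the line as a covariate, 4 of 45 members were higher and 1 lower (5.14% and 7.04% of all regions). PKP2 +75.3 kb was higher in each line (log2 change 1.39, SE 0.30, adjusted p = 0.00415). In SCC1 it held 36.8, 19.5 and 26.6 with cetuximab and 22.1 and 8.93 with PBS, and these overlap. In SCC25 its levels were 4.22, 7.82 and 8.86 and 3.01, 4.33 and 0.85, which are low and overlap. DSP +12.1 kb (chr6:7553856-7554154, intron) was higher with cetuximab in each line without overlap (log2 change 1.06, SE 0.28, adjusted p = 0.0146). Its values were 50.8, 52.6 and 56.3 against 49.4 and 42.4 in SCC1. They were 10.1, 10.2 and 8.93 against 1.21, 0.67 and 4.35 in SCC6, where the region was too low for the single-line test. In SCC25 they were 40.8, 41.7 and 46.0 against 33.2, 17.3 and 23.8. With the replicate number as a block its adjusted p was 0.0519 (limma). PKP2 +53.2 kb (log2 change 0.87, SE 0.23, adjusted p = 0.016) and PKP2 +36.3 kb (log2 change 0.90, SE 0.25, adjusted p = 0.0206) were the other higher regions and PKP2 +59.9 kb the lower one (log2 change -1.39, SE 0.43, adjusted p = 0.0372), named after their values were seen. The call at PKP2 +36.3 kb was lost without SCC6 cetuximab replicate 1 (adjusted p = 0.0509, limma). That at PKP2 +59.9 kb was lost without any 1 of the 5 SCC1 libraries, and without SCC6 cetuximab replicate 1 or 2 or any 1 SCC6 PBS library, and without SCC25 cetuximab replicate 1 (adjusted p 0.0508 to 0.0928, limma). The 5 calls became 3 without SCC6 cetuximab replicate 1.

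Whether the effect of cetuximab differed between lines was tested by the interaction of line and treatment, and 5 of 45 members passed, all of them plakophilin regions (11.1%, against 13.2% of all regions). PKP3 +0.1 kb had log2 changes of 0.81 for SCC1, -0.23 for SCC6 and 0.26 for SCC25 (adjusted p = 0.00428, limma). PKP1 +16.6 kb had little signal in SCC6, with means of 6.73 with cetuximab and 9.29 with PBS and no peak there. It changed by 1.35 in SCC1, -0.42 in SCC6 and -0.07 in SCC25 (adjusted p = 0.00548, limma). These 2 were called with any 1 of the 17 libraries left out. PKP1 +24.5 kb changed by 0.73, -1.36 and -0.40 in the same order (adjusted p = 0.0205, limma). Without SCC1 PBS replicate 1 or 3 or SCC6 cetuximab replicate 1 its adjusted p was 0.0586, 0.0655 or 0.0503 (limma). PKP2 +59.9 kb (-2.63, -2.09 and 0.30, adjusted p = 0.0345, limma) lost its call without SCC1 PBS replicate 1, without SCC25 cetuximab replicate 2 or 3, and without any 1 of the SCC25 PBS libraries (0.0521 to 0.106). PKP3 +13.0 kb (1.04, -0.41 and 0.06, adjusted p = 0.0461, limma) lost it in 16 of 17 such fits, all but that without SCC1 cetuximab replicate 2 (0.0530 to 0.164). Both were named after their values were seen. The 5 calls became 2 without SCC1 PBS replicate 1, and 3 without SCC6 cetuximab replicate 1, SCC25 cetuximab replicate 2 or 3 or any 1 SCC25 PBS library.

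More members were called between lines than between treated and untreated cells of 1 line, and the same held for all regions of the table. Between PBS libraries of SCC6 and SCC1, 6 of 44 tested members were higher in SCC6 and 17 lower, against 30.7% and 30.5% of all regions. Between SCC25 and SCC1, 17 were higher in SCC25 and 6 lower (28.2% and 23.1%), and between SCC25 and SCC6, 27 were higher in SCC25 and 8 lower (36.7% and 32.1%). Each line enters 2 of these 3 comparisons. The split between higher and lower moved with the scaling. After centring on the median, 3 members were higher and 24 lower in SCC6 than in SCC1 (of all tested regions, 25.1% and 41%), and 10 were higher and 12 lower in SCC25 than in SCC1 (20.6% and 42.4%). With the GC trend removed these splits were 12 and 13 (40.4% and 23.7%), and 14 and 4 (28% and 22.9%), and that of SCC25 against SCC6 was 19 and 11 (30.6% and 42.9%). Centring moved the median of all regions from -0.06 to -0.39 for SCC6 against SCC1 and from -0.04 to -0.52 for SCC25 against SCC1, and GC removal moved that of SCC25 against SCC6 from 0.06 to -0.31.

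These cadherin genes lie in 1 cluster on chromosome 18, in the order DSC3, DSC2, DSG1, DSG3 and DSG2, and were more accessible in SCC25. Of 20 cadherin regions tested, 14 were higher in SCC25 than in SCC1 and 0 lower (median log2 difference 1.09), and 16 were higher and 2 lower than in SCC6 (median 1.44). Against SCC1, 9 to 10 were higher and 0 lower under the other scalings. The regions within 5 Mb of these genes shifted alike, with medians of 1.09 to 1.17 against SCC1 and 1.34 to 1.39 against SCC6, and 59.4% to 61.5% and 69.4% to 70.9% of them were called higher in SCC25. DSC3 -0.1 kb (chr18:28622546-28623112), the promoter of a desmocollin of stratified epithelium, held 297, 247 and 249 in SCC25, 129 and 126 in SCC1 and 58.0, 47.5 and 57.6 in SCC6. The lines did not overlap, and SCC25 was 4.86-fold above SCC6 (log2 change 2.26, SE 0.14, adjusted p = 1.08e-09). DSC3 +31.2 kb, an intronic region, was 7.97-fold higher in SCC25 (194, 204 and 146) than in SCC1 (29.9 and 15.6; log2 change 2.99, SE 0.25, adjusted p = 2.02e-07). The DSG2 promoter held 169, 162 and 135 in SCC25 and 49.4 and 69.2 in SCC1 (log2 change 1.39, SE 0.19, adjusted p = 2.53e-05).

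SCC6 stood apart at single cadherin regions. DSG3 +0.0 kb (chr18:29027511-29027809), the promoter of the desmoglein of basal keratinocytes, was at the floor of 1 read in all 3 SCC6 PBS libraries and held 36.4 and 49.1 in SCC1 and 52.0, 51.9 and 50.05 in SCC25. Set against 3 reads per library it was at least 14.4-fold lower in SCC6 than in SCC1 (log2 change -4.46, SE 0.40, adjusted p = 1.32e-07) and at least 17.3-fold lower than in SCC25. It passed the filter on low signal through its SCC1 and SCC25 libraries alone. With no filter its log2 change for SCC6 against SCC1 was -4.46 (adjusted p = 7.39e-07, limma). The 3 cetuximab libraries of SCC6 held 1.01, 0.93 and 0.99, which are 1, 1 and 3 reads. DSG1 +20.6 kb (chr18:28918576-28918776, intron) showed the opposite. It held 73.7, 60.2 and 68.5 in SCC6 PBS libraries, 1.30 and 1.12 in SCC1 and 1.13, 0.72 and 0.85 in SCC25, where these are 1 read in SCC1, and was at least 18.6-fold higher in SCC6 than in SCC1. It passed the filter on low signal through its SCC6 libraries alone, and with no filter its log2 change was 4.95 (adjusted p = 3.04e-07, limma). DSC2 +29.8 kb (chr18:28652480-28652680, intron) followed the same order, with 31.4, 33.5 and 28.3 in SCC6, 1.30 and 1.12 in SCC1 and 1.51, 1.44 and 1.70 in SCC25, and was at least 8.56-fold higher than in SCC1. It too passed the filter through SCC6 alone, and with no filter its log2 change was 3.86 (adjusted p = 6.92e-07, limma). Cetuximab left DSG1 +20.6 kb at 101, 103 and 65.1 and DSC2 +29.8 kb at 60.6, 46.4 and 39.0 in SCC6, neither of which was called.

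At DSP, 3 of the 6 regions were lower in SCC25 than in SCC1 and 0 higher, with a median of -0.71 beside -0.50 for the regions within 5 Mb. Against SCC6, 2 were higher and 2 lower in SCC25. Its promoter held 106, 92.3 and 106 in SCC25, 131 and 159 in SCC1 and 174, 137 and 194 in SCC6, so that SCC25 lay below every library of the other lines. The intronic DSP +12.1 kb was the DSP region with the widest range over lines, from 1.21, 0.67 and 4.35 in SCC6 to 33.2, 17.3 and 23.8 in SCC25 and 49.4 and 42.4 in SCC1.

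Among the plakophilins, PKP1 was less accessible in SCC6. Of its 9 regions 8 were lower in SCC6 than in SCC1 and 0 higher, with a median of -1.62 beside -0.45 for regions within 5 Mb, of which 40.7% were lower. Between 5 and 9 were lower under the other scalings. PKP1 +19.2 kb (chr1:201271593-201271997, intron) held 1.21, 2.01 and 3.26 in SCC6, 50.7 and 69.2 in SCC1 and 70.1, 90.9 and 80.6 in SCC25 (log2 change -4.31, SE 0.37, adjusted p = 8.01e-08 for SCC6 against SCC1). This region passed the filter on low signal through its SCC1 and SCC25 libraries. With no filter its log2 change for SCC6 against SCC1 was -4.31 (adjusted p = 7.24e-07, limma). The PKP1 promoter in SCC6 held 6.04, 3.35 and 9.79 with PBS and 15.2, 10.2 and 8.93 with cetuximab. In SCC25 it held 104, 90.1 and 91.6 with PBS, a difference from SCC6 of 3.80 on the log2 scale. PKP1 -8.1 kb, upstream of the gene, was open in all lines (89.4, 116 and 127 in SCC6 PBS libraries and 159 and 119 in SCC1). PKP1 +24.5 kb was lower in SCC25 than in SCC1 (19.2, 18.0 and 22.9 against 52.0 and 49.1; log2 change -1.30, SE 0.30, adjusted p = 0.00208).

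PKP2 ran the other way. Its 6 tested regions all had positive differences between SCC6 and SCC1 (median 0.57, with 2 called higher), close to the 0.49 of regions within 5 Mb. After centring 0 were called. Between SCC25 and SCC6, 4 were lower and 1 higher, with a median of -1.04 beside -0.22. Its promoter held 428, 374 and 429.6 in SCC6, 277 and 283 in SCC1 and 193, 239 and 198 in SCC25, and the lines did not overlap. The difference of SCC25 from SCC1 was small (log2 change -0.42, SE 0.11, adjusted p = 0.00631) and was not called with the GC trend removed (adjusted p = 0.218, limma). PKP3 had 1 of 3 regions called in each pair of lines.

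**Figure D5:**
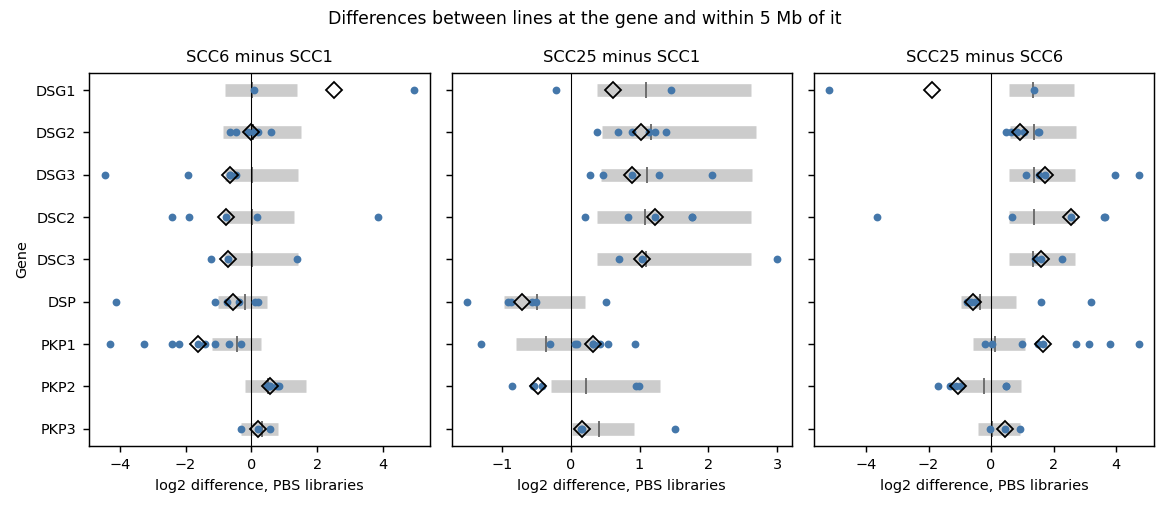
Log2 differences between PBS libraries of 2 lines at the tested regions of each gene (points), with their median (diamond), beside the median (tick) and the interquartile range (grey bar) of tested regions within 5 Mb of the gene. For the 5 cadherin genes in SCC25 minus SCC1 the grey bars and all points but 1, at DSG1, lie above 0. The region shared by DSG2 and DSG3 is drawn at both genes. For PKP1 in SCC6 minus SCC1 the diamond at -1.62 is below the tick at -0.45. The horizontal range differs between panels.

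The peaks called in each library give a second reading of the same libraries at the same regions, which does not use the signal of the region table. A peak was present in all 17 libraries at 4 members, which were DSC3 +55.1 kb, PKP1 -8.1 kb, PKP2 -0.3 kb and PKP3 +0.1 kb. At 6 members every library of 1 line and no library of another had a peak. DSG1 +20.6 kb, DSC3 +41.0 kb, PKP2 +55.2 kb and PKP2 +4.5 kb had a peak in all 6 SCC6 libraries and in none of SCC1. PKP1 -0.1 kb had one in all 5 SCC1 libraries and in none of SCC6, and PKP1 +28.2 kb in all SCC25 libraries and in no library of another line. DSC3 +41.0 kb, in coding sequence of exon 14, was at or near the floor of the region table in every library in spite of its peaks. PKP2 +4.5 kb had signal in SCC1 without a peak, with means of 89.9 with cetuximab and 107 with PBS, against 148 and 161 in SCC6. PKP1 +28.2 kb likewise held 95.1 and 67.3 in SCC1. Signal was low at DSG1 +20.6 kb and PKP2 +55.2 kb in SCC1 and at PKP1 -0.1 kb in SCC6. Peaks were fewest in SCC1, where libraries held 13035 to 36033, against 47441 to 101272 in SCC6 and 18642 to 81963 in SCC25, and absence of a peak in a shallow library does not show a closed region.

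JUP encodes plakoglobin, the armadillo protein that both desmosomes and adherens junctions use. Its promoter peak, at JUP -0.1 kb (chr17:39942665-39943432, first exon), was called in 15 of 17 libraries with a fold enrichment over local background of 2.61 to 4.14 and a median of 3.22. All 6 SCC6 libraries had it, at 3.31 to 4.14, and 4 of 5 SCC1 libraries had it at 2.82 to 3.20. JUP -6.5 kb, upstream, was called in 14 libraries at 1.11 to 6.88, and reached 3.60 to 6.88 in SCC6. The lowest of these peaks, in SCC1 cetuximab replicate 2, had a -log10 q of only 0.30. In SCC25 the peak was present in 1 cetuximab library at 2.11 and in 2 PBS libraries at 2.75 and 2.81. JUP +13.3 kb, in an intron, was called in 9 libraries at 1.87 to 5.02. Fold enrichment depends on depth, and no comparison of treatments was made on it.

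Other genes of these junctions were counted by the same window. The desmosome-associated genes DSG4, DSC1, PERP, CDSN, EVPL, PPL and PKP4 had 41 regions, among which CDSN had none. In SCC1 2 of 36 tested were higher and 1 lower, in SCC6 2 of 36 were higher and 3 lower, and in SCC25 0 of 35 were higher and 1, at DSG4, lower. The adherens junction genes CDH1, CDH3, CTNNA1, CTNNB1 and CTNND1 had 42 regions. In SCC1 1 of 38 was higher and 4 lower, in SCC6 4 of 36 were higher and 3 lower, and in SCC25 limma called 0 of 37. Beside both lists, the shares of all tested regions higher and lower were 4.57% and 6.56% in SCC1. They were 16.9% and 10.6% in SCC6, and 0.0405% and 0.275% in SCC25. The 1 higher region in SCC1 was at CDH1, E-cadherin, whose 12 regions had a median change of 0.69. The other medians in SCC1 were 0.28 at CDH3, -0.65 at CTNNA1, -0.55 at CTNNB1 and -0.30 at CTNND1. All adherens junction regions together had a median of -0.06 in SCC1.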

How the data were processed

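ATAC-seq libraries were made from SCC1, SCC6 and SCC25 after 5 days with cetuximab or PBS. Per the labels and the study's methods, the authors trimmed reads with Trim Galore 0.5.0, aligned them to hg19 (GRCh37) with Bowtie2 2.3.2, took out duplicates and reads of mitochondrial DNA (Picard 2.18) and those left unmapped or of low quality (SAMtools 1.9), called peaks per library with MACS2 and used DiffBind to count reads over shared regions. The deposited region table holds a signal, which is whole reads per region (0 set to 1) times 1 factor per library (0.331 to 1.95), and 100% of values came out whole within 0.001. The deposited peak lists hold the fold enrichment (a ratio), the -log10 p and the -log10 q of MACS2. 0 columns of samples were left unused.

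Regions were joined to genes of GENCODE release 44 on GRCh37. Differences were tested with limma 3.58.1 (R 4.3.3, trend and robust, two-sided) on log2(signal + 1) over all regions, with the 25% lowest in mean left out within the libraries of each fit, and called at a Benjamini-Hochberg adjusted p under 0.05. All log2 changes are on this scale, which understates the change of low regions. Each line was fitted on its own. The 3 lines together were fitted with the line as a covariate and with its interaction with treatment, and the PBS groups in 1 fit. The limma step was tested on simulated data. Members, gene lists, motifs and tests were chosen with earlier results of these data known. Named were each gene's promoter region, in each line up to 3 called regions a direction, by adjusted p, the 3 smallest interactions, up to 2 a direction between lines and over all lines, and regions of the highest mean signal. Alternatives were other scalings, pseudocount 5, no filter, a replicate block, edgeR 4.0.16 and DESeq2 1.42.0 on the recovered reads, an adjusted p under 0.01, windows of 0 and 25 kb, leaving out each library and stricter peaks. Some sequences of these regions are not reported here. Overlaps used bedtools 2.31.1. Replicate libraries differed by more than sampling noise, so that each was counted once.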

Additional observations from a re-analysis of the deposited data

Results flagged for a closer look

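At 5 plakophilin regions the effect of cetuximab differed between the lines by the interaction term of limma, with Benjamini-Hochberg adjustment over all regions. They were 11.1% of the 45 members tested, under the 13.2% of all regions. The adjusted p was 0.00428 at PKP3 +0.1 kb, 0.00548 at PKP1 +16.6 kb, 0.0205 at PKP1 +24.5 kb, 0.0345 at PKP2 +59.9 kb and 0.0461 at PKP3 +13.0 kb. The last 3 of these calls were lost when single libraries were left out, most often that at PKP3 +13.0 kb. At PKP1 +16.6 kb the 3 treated SCC1 libraries were all above both untreated ones, while the changes of -0.42 in SCC6 and -0.07 in SCC25 were not called. In SCC6 this region had little signal, with means of 6.73 with cetuximab and 9.29 with PBS. At PKP1 +24.5 kb the log2 change was 0.73 in SCC1, which was not called, and -1.36 in SCC6, which was.

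At the 3 JUP regions peaks were called although the region table lists 1 read in every library. There were 15 libraries with a peak at JUP -0.1 kb, 14 at JUP -6.5 kb and 9 at JUP +13.3 kb. The cause was not tested.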

How the results depend on the processing

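The counts of called members moved with several choices. The medians over the tested regions of PKP1 and of PKP3 in SCC1, called or not, stayed positive under all 4 other scalings. In SCC1 the 7 calls became 4 with no filter, with the GC trend removed and with DESeq2, 3 at an adjusted p under 0.01, and 1 to 8 with 1 library left out. In SCC6 the 9 became 4 at an adjusted p under 0.01, 15 with a window of 25 kb, and 5 to 10 with 1 library left out. In SCC25 the 0 became 6 when scaled to reads outside peaks, and stayed 0 in the other 18 fits. Over all lines the 5 became 2 with the replicate block, 0 without the line as a covariate (0 of them higher or lower by limma, where edgeR and DESeq2 with the covariate called 5 and 5), 1 at an adjusted p under 0.01, and 3 to 6 with 1 library left out. For the interaction the 5 became 11 after centring, 3 with no filter, 8 with edgeR, 2 at an adjusted p under 0.01, 8 with a window of 25 kb, and 2 to 7 with 1 library left out. Between PBS libraries of SCC25 and SCC1 the 23 became 15 without the 10 kb extension. With 1 library left out the PBS counts were 18 to 25 for SCC25 against SCC1, 19 to 22 for SCC6 against SCC1 and 31 to 37 for SCC25 against SCC6. The 4 members with a peak in every library became 0 at a -log10 q of at least 5, 0 where a peak had to cover 50% of the region and 2 without the extension. The 6 members split by line became 0 and 2 under the first and second of these.

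Some changes that had not been called turned sign. PKP1 +16.6 kb in SCC25 changed by 0.051 after centring, 0.011 after quantile normalization, 0.0025 with edgeR and 0.0098 with DESeq2. PKP2 +59.9 kb in SCC25 ran from -0.025 without cetuximab replicate 2 to 0.77 without cetuximab replicate 1. PKP3 +0.1 kb was 0.032 in SCC6 with the GC trend removed and -0.033 in SCC25 scaled to reads outside peaks. PKP3 +13.0 kb in SCC25 was -0.039 with the GC trend removed, -0.24 scaled to reads outside peaks, and ran from -0.046 without PBS replicate 2 to 0.19 without PBS replicate 1. The cause was not tested.

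The labels share replicate numbers between groups, but same-numbered libraries did not deviate together (correlations of -0.042 to 0.026), so that the numbers were not taken to pair the libraries. With the replicate block the counts were 9 in SCC1, 9 in SCC6, 0 in SCC25, 2 over all lines, 5 for the interaction, and 21, 24 and 35 for the PBS pairs SCC6 with SCC1, SCC25 with SCC1 and SCC25 with SCC6. Depth limits SCC1 most, with 7 to 15 reads in the median region.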
